A study of Zea mays with 8 samples.

Results

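Alpha-zeins are the main storage proteins of the maize kernel, and 8 gene models of this family were followed here. They were taken by identifier from the 39475 gene models of the deposited tables. The 8 identifiers are GRMZM2G059620 (z1A1_3), GRMZM2G353272 (fl4, also named z1A1_6), GRMZM2G353268 (z1A1_7), GRMZM2G397687 (fl2, also named z1C2), GRMZM2G346897 (z1C1_7), GRMZM2G088365 (az22z5, also named z1C1_12), AF546188.1_FG005 and AF546188.1_FG007. The last 2 are models on a sequenced clone. The reference table used for names gave neither of them a name, so they are alpha-zeins here by the selection rule alone. All 8 passed the filter on low counts.

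RNA sequencing was carried out on kernels of the inbred line B73 grown in a greenhouse, and the labels list no mutant and no treatment. Kernels were taken 18 or 22 days after pollination (DAP). Both the aleurone and the starchy endosperm were sampled at each age, which made 4 groups of 2 biological replicates. The aleurone was taken as mechanical peels of thawed kernels and the starchy endosperm as the dissected tissue beneath, both rinsed in water. The plants behind same-numbered replicates of different groups are not identified in the labels.

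Zeins are prolamins, storage proteins soluble in alcohol. They are made on the rough endoplasmic reticulum and kept in its lumen as protein bodies, where alpha-zeins fill the core and beta- and gamma-zeins lie at the rim. The alpha-zeins form several subfamilies. The z1A, z1B and z1D genes encode the smaller proteins, and the z1C genes encode the larger ones. Many copies lie side by side and are very similar in sequence. Transcription of z1C genes in particular depends on the bZIP factor opaque2. The starchy endosperm is the main site of zein storage, while the aleurone is a surface cell layer that stores oil and other proteins.

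Library totals ran from 2473036 to 11529170 expected counts, and from 9343 to 23244 genes were detected. In every group replicate 2 was deeper yet held fewer detected genes. The tissue labels were checked against marker genes. The 6 aleurone markers summed to between 10925 and 38751 TPM (RSEM's share of transcripts, corrected for gene length) in aleurone and to between 33.8 and 39.4 TPM in starchy endosperm. Among these c1 was at 0 in all libraries and vp1 was at 0 in starchy endosperm. In the edgeR test described below, 5 of the 6 were tested. Of these, 4 were called higher in aleurone at 18 DAP and 3 at 22 DAP, and none lower. For dek1 the log2 fold change was -0.49 and -0.65 at 18 and 22 DAP. By mean TPM it was 3.17 and 2.78 times higher in aleurone, with overlap at 22 DAP. The 5 starchy endosperm markers summed to between 4759 and 6642 TPM in starchy endosperm. None was at 0 in the aleurone, where they summed to between 1477 and 2087 TPM. Their part in the zein levels of the aleurone was not tested. Basal transfer layer, embryo and green tissue markers summed to at most 2.98, 5.88 and 3.44 TPM in any library. In whole tissue, fewer cells of a type and less RNA per cell cannot be told apart.

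Together the 8 alpha-zein genes were a large part of the starchy endosperm transcript pool. Their sum was 40.2% and 36.9% of TPM in 18-DAP starchy endosperm (replicates 1 and 2) and 43.3% and 39.5% at 22 DAP. In aleurone they held 7.21% and 6.21% of TPM at 18 DAP and 9.41% and 7.80% at 22 DAP. The tissues did not overlap, and replicate 1 was the higher library in all 4 groups. As group means these shares were 38.6 ± 2.32% and 41.4 ± 2.72% in starchy endosperm at 18 and 22 DAP, and 6.71 ± 0.702% and 8.60 ± 1.14% in aleurone (SD, n = 2). The aleurone sum was thus 17.4% of the starchy endosperm sum at 18 DAP and 20.8% at 22 DAP, compared by TPM. The summed starchy endosperm markers in aleurone were at 25.4% and 36.2% of their own starchy endosperm level at the same ages, and they differed widely among themselves. The starch synthase gene wx1 was at 64.3% and 80.2% and o2 at 41.5% and 93.8%. Lower shares were found for sh1 (16.0% and 27.9%), sh2 (13.9% and 17.7%) and bt2 (12.1% at 18 DAP and nearly the same at 22 DAP). At 18 DAP 3 of the 5 markers and at 22 DAP 2 of the 5 thus had a lower share than the alpha-zein sum.

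**Figure D1:**
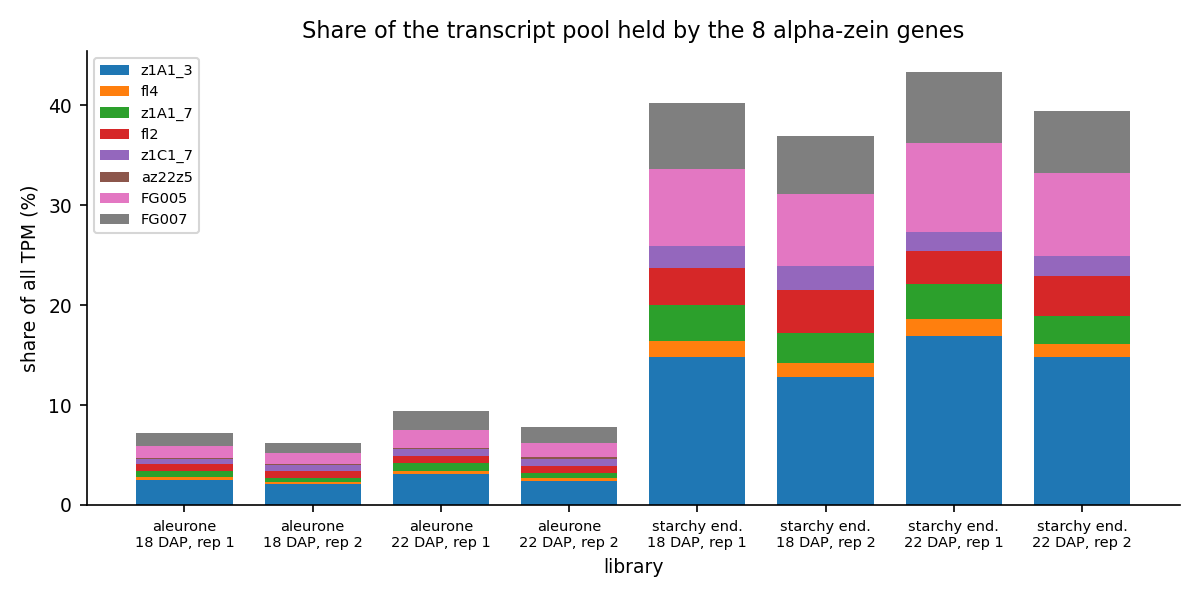
Share of all TPM (%) held by each of the 8 alpha-zein genes, stacked, in each of the 8 libraries; FG005 and FG007 stand for AF546188.1_FG005 and AF546188.1_FG007. The stacks reach 36.9% to 43.3% in starchy endosperm and 6.21% to 9.41% in aleurone, and z1A1_3 is the largest block in each.

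Among the smaller alpha-zeins, the TPM of z1A1_3 was 25341 and 20748 in 18-DAP aleurone, 30781 and 23793 in 22-DAP aleurone, 148046 and 128511 in 18-DAP starchy endosperm, and 169320 and 148131 in 22-DAP starchy endosperm. This gene had the highest mean of the 8 in all 4 groups and was among the top 3 genes of each library. Its identifier was paired with 2 neighbouring genes of the reference, z1A1_3 and z1A1_4, so its value may hold more than 1 copy. The model had 3 transcripts.

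The level of fl4, known from a dominant mutant allele whose protein keeps its signal peptide, was 2899 and 2350 TPM in 18-DAP aleurone, 3497 and 2680 in 22-DAP aleurone, 16018 and 13324 in 18-DAP starchy endosperm, and 16679 and 13279 in 22-DAP starchy endosperm. Both ages overlapped within each tissue. Its ratio to z1A1_3 lay between 0.0896 and 0.114 in all libraries. The neighbouring gene z1A1_7 had 5711 and 4304 TPM in 18-DAP aleurone, 7881 and 5529 in 22-DAP aleurone, 36058 and 30242 in 18-DAP starchy endosperm, and 34808 and 27553 in 22-DAP starchy endosperm. Here too the ages overlapped within a tissue and the tissues did not.

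Of the larger alpha-zeins, fl2 was the most abundant of the 3 followed. Its classical mutant allele also encodes a protein with an uncleaved signal peptide. Its TPM was 6929 and 6974 in 18-DAP aleurone, 6763 and 7316 in 22-DAP aleurone, 36662 and 43279 in 18-DAP starchy endosperm, and 33219 and 39979 in 22-DAP starchy endosperm. The 4 aleurone libraries were close to each other. For z1C1_7 the values were 5408 and 5288 TPM in 18-DAP aleurone, 6701 and 6564 in 22-DAP aleurone, 22096 and 23552 in 18-DAP starchy endosperm, and 19275 and 20489 in 22-DAP starchy endosperm. Libraries at 22 DAP lay above those at 18 DAP in aleurone and below them in starchy endosperm.

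The gene az22z5, a further larger alpha-zein, had another order of groups. Its TPM was 1031 and 1038 in 18-DAP aleurone, 1566 and 1693 in 22-DAP aleurone, 403 and 465 in 18-DAP starchy endosperm, and 116 and 121 in 22-DAP starchy endosperm. All 4 groups were apart, with aleurone above starchy endosperm. These levels rested on between 316 and 10162 expected counts per library, the fewest of the 8 genes.

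The models without a name were the next most abundant of the 8 after z1A1_3. AF546188.1_FG005 stood at 11804 and 10873 TPM in 18-DAP aleurone, 17934 and 14659 in 22-DAP aleurone, 77294 and 72157 in 18-DAP starchy endosperm, and 88543 and 82904 in 22-DAP starchy endosperm. AF546188.1_FG007 stood at 12934 and 10558 TPM in 18-DAP aleurone, 18972 and 15750 in 22-DAP aleurone, 65464 and 57673 in 18-DAP starchy endosperm, and 71189 and 62242 in 22-DAP starchy endosperm. Both were higher at 22 DAP than at 18 DAP in aleurone without overlap, and AF546188.1_FG005 also in starchy endosperm. Both models are 723 bases long, while the other 6 are between 845 and 1273 bases, and TPM depends on the length of the model. The 4 other models of the same clone summed to at most 1333 TPM in any library.

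**Figure D2:**
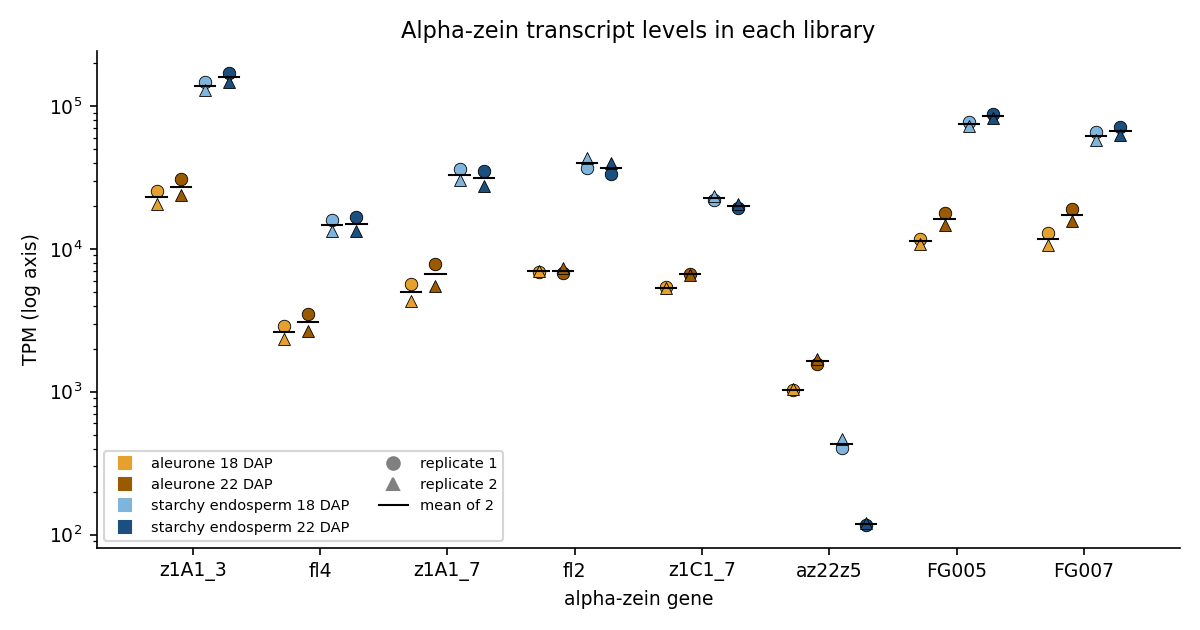
TPM (log axis) of each alpha-zein gene in each library, by group (colour) and replicate (circle 1, triangle 2), with the mean of 2 as a bar; FG005 and FG007 are the AF546188.1 models. For az22z5 the aleurone libraries, from 1031 to 1693 TPM, lie above the starchy endosperm libraries, from 116 to 465 TPM, and for the other genes they lie below.

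The order of the genes by mean TPM was alike in the groups at its ends. In each group z1A1_3 came first and az22z5 last, with no overlap with its neighbour in the order. In starchy endosperm AF546188.1_FG005 stood above AF546188.1_FG007 without overlap, with a ratio of FG007 to FG005 between 0.751 and 0.847. In aleurone both overlapped, and the ratio was between 0.971 and 1.10. Then came fl2, z1A1_7 and z1C1_7, and fl4 was second to last. In aleurone z1C1_7 and z1A1_7 overlapped at both ages, and at 22 DAP fl2 and z1A1_7 overlapped in both tissues.

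Balance within the family can be read without any scaling of libraries. The 3 z1C genes summed to 0.394 and 0.485 of the 3 named z1A genes in 18-DAP aleurone, and to 0.357 and 0.487 in 22-DAP aleurone. In starchy endosperm this TPM ratio was 0.296 and 0.391 at 18 DAP and 0.238 and 0.321 at 22 DAP. Replicate 2 had the higher ratio in all 4 groups. At each age both aleurone libraries were above both starchy endosperm libraries. The nearest libraries at 18 DAP, aleurone replicate 1 and starchy endosperm replicate 2, were at 0.394 and 0.391. Within a replicate number the ratios at 18 DAP were 0.394 against 0.296 and 0.485 against 0.391. The level of az22z5 was between 19.1% and 25.8% of z1C1_7 in aleurone. In starchy endosperm it was 1.82% and 1.98% of z1C1_7 at 18 DAP, and 0.603% and 0.589% at 22 DAP. This share separated all 4 groups.

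How the tissues differed was tested first in the younger kernels, over all genes. At 18 DAP 7 of the 8 alpha-zein genes were lower in aleurone than in starchy endosperm, none was higher, and 1 (az22z5) did not pass. The threshold was an adjusted p of 0.05 (Benjamini-Hochberg) in edgeR's quasi-likelihood test, and 0.866% of the 19058 genes tested were called lower and 1.21% higher. The median log2 fold change was -4.60 over the 8 genes and 0.47 over all tested genes.

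The log2 fold change of z1A1_3 at 18 DAP was -4.69 (SE 0.43, edgeR adjusted p = 0.00195), and that of z1A1_7, the lowest of the 8, was -4.84 (SE 0.42, edgeR adjusted p = 0.00189). The other z1A gene, fl4, was at -4.59 (SE 0.41). Of the z1C genes, fl2 was at -4.61 (SE 0.43) and z1C1_7 at -4.18 (SE 0.39). The clone models AF546188.1_FG005 and AF546188.1_FG007 were at -4.82 (SE 0.41) and -4.50 (SE 0.40). These values are on counts scaled by TMM (a trimmed mean of log ratios between libraries), and scaling by library size alone moved the median of all tested genes from 0.47 to 2.14 at 18 DAP and from 0.94 to 2.56 at 22 DAP. With library size alone the same 7 genes stood between -3.17 and -2.53 at 18 DAP, and all 7 were still called lower.

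For az22z5 at 18 DAP the log2 fold change was -0.83 (SE 0.36, edgeR adjusted p = 0.307), while its mean TPM was 2.38 times higher in aleurone. Its sign turned with the scaling: it was 0.82 with library size alone (edgeR adjusted p = 0.128) and 1.26 on log2(TPM + 1) with limma (adjusted p = 0.00762). That limma fit called 9438 of the 19058 tested genes higher in aleurone, and its median over all tested genes was 1.92. Relative to the typical gene az22z5 was thus lower in 18-DAP aleurone, not past the threshold, and as a share of transcripts it was higher.

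At 22 DAP all 8 genes were called, 7 lower and 1 (az22z5) higher in aleurone. Over all tested genes 0.504% were called lower and 1.19% higher at this age. The median over the 8 genes was -4.23, beside 0.94 over all tested genes. The log2 fold change was -4.50 (SE 0.42, edgeR adjusted p = 0.00301) for z1A1_3, -4.25 for fl4, -4.20 for z1A1_7, -4.28 for fl2 and -3.51 (SE 0.38, edgeR adjusted p = 0.00389) for z1C1_7. For AF546188.1_FG005 and AF546188.1_FG007 it was -4.35 and -3.90.

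For az22z5 at 22 DAP the log2 fold change was 1.87 (SE 0.37, edgeR adjusted p = 0.0451), and the mean TPM was 13.8 times higher in aleurone, at 1629 ± 89.2 against 118 ± 3.20 (SD, n = 2). The call was close to the threshold. Its adjusted p was between 0.0165 and 0.315 when single libraries were left out, and it stayed called without 18-DAP aleurone replicate 1, 22-DAP aleurone replicate 1 or 22-DAP starchy endosperm replicate 1. It was not called without any 1 of the other 5 libraries. Over these fits the log2 fold change of az22z5 was between 1.34 and 2.02. Without 22-DAP starchy endosperm replicate 1 the median over all tested genes was 5.74, against 0.94 with all libraries. That group was then replicate 2 alone, in which 9343 genes were detected. Most tested genes thus had no counts in it, and az22z5 cannot be placed against a typical gene by that median. Upper quartile scaling also ended the call (1.50, edgeR adjusted p = 0.057), while the sign was positive under every alternative run, with log2 fold changes from 1.34 to 3.77. Fitting the 4 libraries at 22 DAP alone gave no call among the 8 genes (0), with adjusted p between 0.231 and 0.247, and none among all genes tested, where 2955 had an unadjusted p under 0.05.

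**Figure D3:**
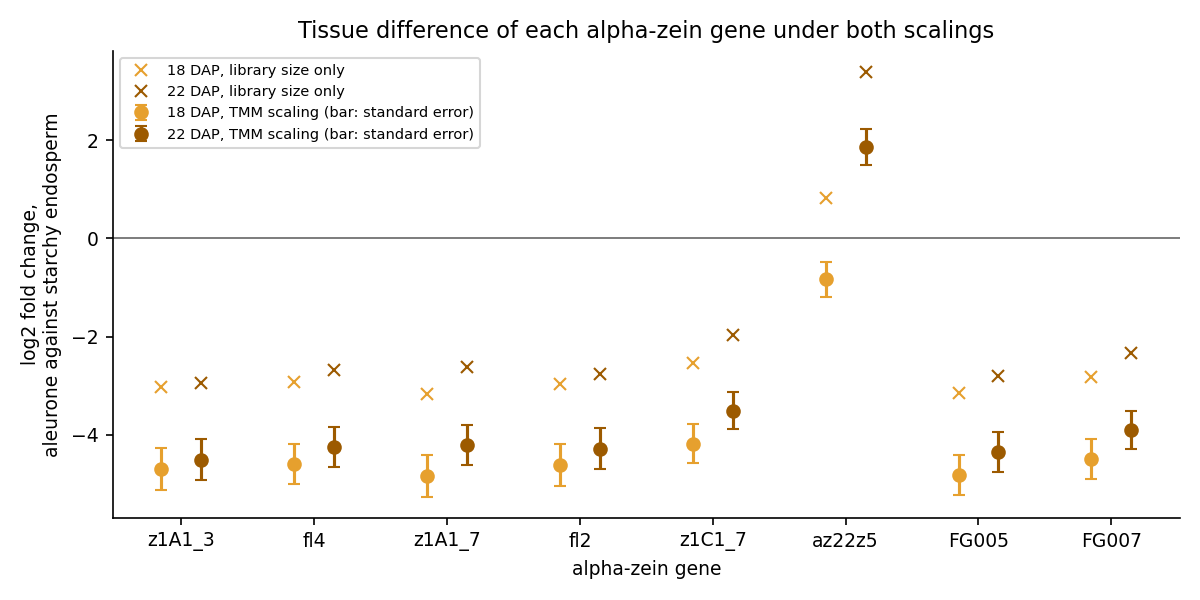
Log2 fold change of aleurone against starchy endosperm for each alpha-zein gene at 18 and 22 DAP; circles are TMM-scaled values with their standard error, crosses the values with library size alone. The circles of 7 genes lie between -4.84 and -3.51, and az22z5 lies at -0.83 and 1.87, with a cross above 0 at both ages.

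To ask whether levels changed with age, 22 DAP was compared with 18 DAP within each tissue. None (0) of the 8 genes was called in aleurone, where edgeR called 0.0% of the 19058 tested genes. In that contrast 195 genes had an unadjusted p under 0.05, none of them an alpha-zein followed here, and DESeq2 called 2 genes and limma 25. All 8 log2 fold changes were above 0, though that of fl2 turned below 0 without 1 of 2 single libraries. They ran from 0.16 for fl2 (SE 0.37) to 0.80 for az22z5 (SE 0.36, unadjusted p = 0.0521, edgeR adjusted p = 1). By TPM, 4 of the 8 were higher at 22 DAP without overlap (z1C1_7, az22z5 and both AF546188.1 models), and none was lower. Over all tested genes 11.4% were higher and 18.5% lower without overlap. Overlap takes no account of replicate number. Between same-numbered libraries, TPM also rose with age in both pairs for z1A1_3 (ratios 1.21 and 1.15), fl4 (1.21 and 1.14) and z1A1_7 (1.38 and 1.28). For fl2 these ratios were 0.976 and 1.05. The share of all genes that rose in both pairs was not counted.

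In starchy endosperm edgeR again called 0 of the 8 genes and 0.0% of all tested genes, 654 of which had an unadjusted p under 0.05. DESeq2 called 22 genes and limma 0. The log2 fold changes of 7 members were between -0.23 and 0.19. That of az22z5 was -1.90 (SE 0.37, unadjusted p = 0.000618, edgeR adjusted p = 1), and its TPM at 22 DAP was 27.3% of that at 18 DAP. It passed the threshold without the filter on low counts (adjusted p = 0.0102) and without 22-DAP starchy endosperm replicate 1 (adjusted p = 0.0222). Leaving out that library raised the calls over all genes in this contrast. It left 22-DAP starchy endosperm as replicate 2 alone, with 9343 genes detected. By TPM, 2 of the 8 were higher at 22 DAP without overlap (z1A1_3 and AF546188.1_FG005) and 2 were lower (z1C1_7 and az22z5), beside 6.52% and 18.9% of all tested genes. Between same-numbered libraries, AF546188.1_FG007 also rose in both pairs (ratios 1.09 and 1.08). In both pairs fl2 (0.906 and 0.924) and z1A1_7 (0.965 and 0.911) fell, and fl4 was at 1.04 and 0.997.

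The tissue difference itself was then compared between the ages as an interaction. EdgeR called 0 of the 8 genes and 0.0% of all tested genes, with 390 at an unadjusted p under 0.05, and DESeq2 called 1 gene and limma 0. The interaction of az22z5 was 2.70 on the log2 scale (SE 0.51, unadjusted p = 0.000533, edgeR adjusted p = 1.00). It was called without the filter on low counts (edgeR adjusted p = 0.0214), as were 17 of 27206 genes in all. With single libraries left out it ran from 2.29 to 2.91. Without 22-DAP starchy endosperm replicate 1 the median interaction over all tested genes was 1.95, against 0.41 with all libraries. Here too that group was replicate 2 alone, with 9343 genes detected. For the other 7 genes the interaction was between 0.19 (SE 0.52) for z1A1_3 and 0.68 (SE 0.49) for z1C1_7. Moving up in aleurone and down in starchy endosperm without overlap was seen for z1C1_7 and az22z5, 2 of 8, and for 1.79% of all tested genes.

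**Figure D4:**
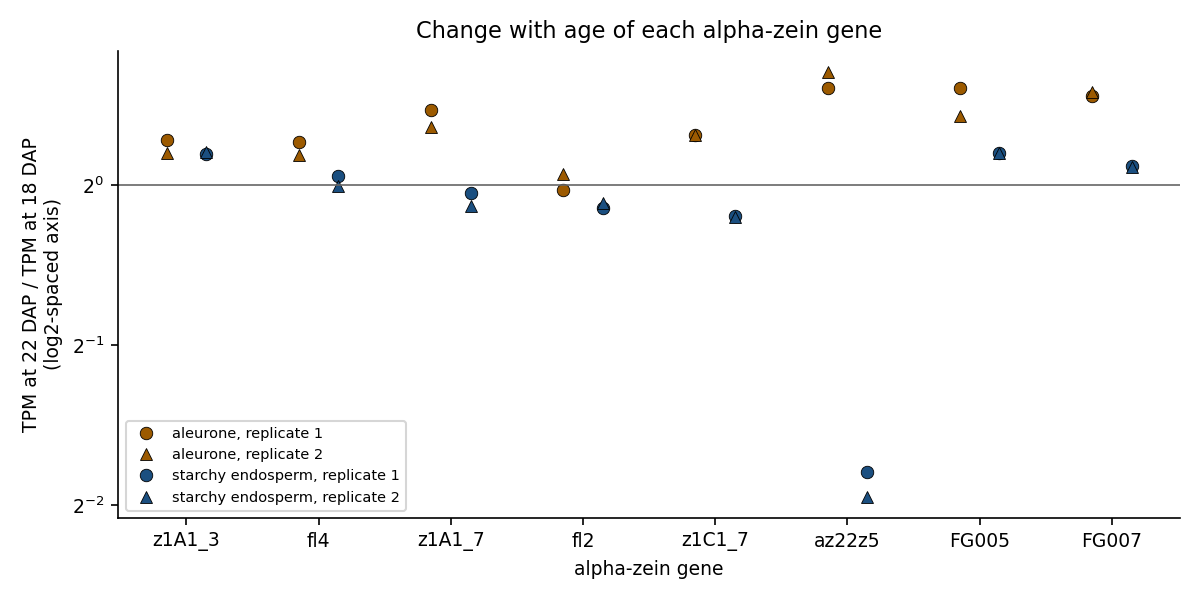
TPM at 22 DAP divided by TPM at 18 DAP (log2-spaced axis) for each alpha-zein gene, by tissue (colour) and replicate (shape). The starchy endosperm points of az22z5 stand at 0.289 and 0.260 and its aleurone points at 1.52 and 1.63, and the points of the other genes lie between 0.870 and 1.52.

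The 8 genes were set beside the rest of the family. The reference table named 41 alpha-zein genes, of which 22 had an identifier in the files, and 15 identifiers of named alpha-zeins were outside the 8. Of these 15, 13 were called lower in 18-DAP aleurone and 13 at 22 DAP, with none higher, and their median log2 fold changes were -4.49 and -3.94. With library size alone 13 and 10 were called lower. The abundant z1A1_5 was at 14.3% of its starchy endosperm TPM in 18-DAP aleurone and at 18.4% at 22 DAP.

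Not called at either age were z1C1_11 and z1C1_1, the neighbours of az22z5 in the list of named genes with an identifier. For z1C1_11 the TPM was 45.0 and 29.0 in 18-DAP aleurone, 59.6 and 65.7 in 22-DAP aleurone, 15.5 and 11.0 in 18-DAP starchy endosperm, and 4.73 and 13.4 in 22-DAP starchy endosperm. Its aleurone libraries were thus above its starchy endosperm libraries by TPM, as for az22z5, at far lower levels. By TPM the typical tested gene was also higher in aleurone. Its log2 fold change was -0.65 (SE 0.77) at 18 DAP, with a sign that turned with library size alone, and 0.93 (SE 0.77) at 22 DAP. For z1C1_1 the TPM was 75.7 and 59.8 in 18-DAP aleurone, 6.07 and 0 in 22-DAP aleurone, 48.1 and 46.7 in 18-DAP starchy endosperm, and 3.50 and 1.81 in 22-DAP starchy endosperm. Its age groups were apart by TPM in both tissues, which did not pass the test, and its tissue groups at 22 DAP overlapped.

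**Figure D5:**
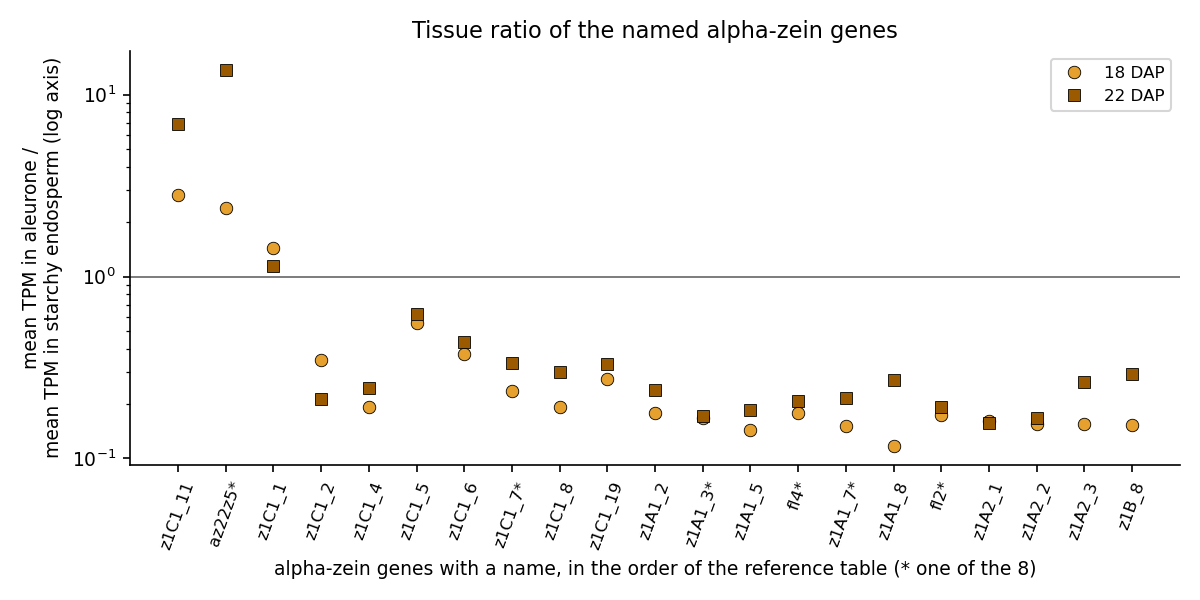
Mean TPM in aleurone divided by mean TPM in starchy endosperm (log axis) at 18 and 22 DAP for the 21 identifiers with an alpha-zein name, in the order of the reference table. Points of az22z5 (2.38 and 13.8) and of z1C1_11 (2.79 and 6.92) lie above 1. Those of z1C1_1 lie just above it at 1.43 and 1.14, and the others lie below it. A ratio of 1 is not the level of the typical gene. Over all tested genes the median difference on log2(TPM + 1) was 1.92 at 18 DAP and 2.03 at 22 DAP, towards aleurone.

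Similar copies can share reads, which RSEM divides among the models it knows. Its own posterior standard deviation of the count was at most 1.45% of the count, for z1A1_7, and at most 0.135% for fl2. For az22z5 it was between 0.158% and 0.997%. This covers division among the models in the table, and copies with no identifier in the files are not in it, so values of single copies are uncertain to that extent.

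Genes whose profile was most like that of z1A1_3 were found over the 8 libraries among 1645 genes with a group mean of at least 100 TPM. The measure was the root mean square distance between centred log2(TPM + 1) profiles. Nearest outside the 8 were z1A2_1 (0.08), z1A2_2 (0.13), GRMZM2G037284 (0.14), z1A1_2 (0.18) and fl3 (0.28, GRMZM2G006585). The others of the 8 genes were at distances from 0.11 for AF546188.1_FG005 to 0.42 for z1C1_7, apart from az22z5 at 2.65. Nearest to az22z5 were GRMZM2G012806 (0.33), GRMZM2G086805 (0.41), GRMZM2G117984 (0.45), GRMZM2G130678 (0.48) and GRMZM2G077541 (0.48), none an alpha-zein by name. GRMZM2G012806 had mean TPM of 3843 and 4771 in aleurone and 1106 and 539 in starchy endosperm at 18 and 22 DAP.

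Beta- and gamma-zeins, which line the protein body, were 4 genes. Only gz50, a gamma-zein, was called lower in aleurone, at -4.87 (SE 0.49, edgeR adjusted p = 0.00234) at 18 DAP and -4.55 (SE 0.48, edgeR adjusted p = 0.00370) at 22 DAP. The other 3 had log2 fold changes below 0 under every scaling and did not pass. The gamma-zein gz27 had 12971 and 61388 TPM in 18-DAP starchy endosperm and 4482 and 12456 in 18-DAP aleurone. Replicate 2 was the higher one in every group for gz27, gz16 and bz15, where the 8 alpha-zein genes as a sum were lower in replicate 2.

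The list of genes taken as regulators of zein genes held 9 identifiers, 8 of them tested. They were chosen by symbol, and whether each acts on zein genes was not examined. At 18 DAP 3 were called lower in aleurone and none higher, and at 22 DAP 1 lower and none higher. The transcription factor opaque2 (o2) was at -3.36 (SE 0.51, edgeR adjusted p = 0.0133) at 18 DAP and at -1.93 (SE 0.48, edgeR adjusted p = 0.101) at 22 DAP. Its TPM was 77.1 and 90.4 in aleurone and 149 and 255 in 18-DAP starchy endosperm, and the tissues overlapped at 22 DAP. With library size alone the o2 call at 18 DAP was lost (-1.71, edgeR adjusted p = 0.0627).

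The identifier GRMZM2G146283, 1 of 2 paired with the prolamin-box binding factor pbf1, was at -2.60 (SE 0.53, edgeR adjusted p = 0.0443) at 18 DAP and lost its call with library size alone (-0.91, edgeR adjusted p = 0.27). Called lower at both ages was fl3, which encodes a PLATZ protein, at -4.77 (SE 0.44) and -4.60 (SE 0.44). The aleurone regulators nkd1 and nkd2 did not pass at either age, although by mean TPM nkd1 was 4.57 and 10.7 times and nkd2 4.68 and 6.24 times higher in aleurone at 18 and 22 DAP, without overlap. On log2(TPM + 1) the median over all tested genes was also towards aleurone, at 1.92 and 2.03. The share of all genes without overlap between the tissues was not counted. With library size alone nkd1 was called higher at 22 DAP (log2 fold change 3.08, edgeR adjusted p = 0.0101). The median over all tested genes was 2.56 in that fit. The counts over the list were then 1 lower and 0 higher at 18 DAP, and 1 lower and 1 higher at 22 DAP. Of all 19058 tested genes, 51 were then called lower and 1281 higher at 18 DAP, and 38 and 1598 at 22 DAP.

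Of 5 genes for protein body shape and protein folding, 1 was called higher in aleurone at each age and none lower. With library size alone 2 were called higher at 18 DAP (pdi2 and crt2) and 3 at 22 DAP (pdi2, crt2 and bip2), with none lower. That scaling moved all genes upward, to medians of 2.14 and 2.56. Of the 19058 tested genes it called 1281 higher and 51 lower at 18 DAP, and 1598 and 38 at 22 DAP. The gene called under both scalings was pdi2, a protein disulphide isomerase by name, at 2.42 (SE 0.50, edgeR adjusted p = 0.0493) and 3.35 (SE 0.53, edgeR adjusted p = 0.0193). The chaperone gene bip2 had 29.0 and 59.3 TPM in 18-DAP starchy endosperm and 2.27 and 1.48 at 22 DAP, at an age log2 fold change of -4.59 (SE 0.69) that did not pass (edgeR adjusted p = 0.669). The starch synthesis list had 8 of 9 genes called lower in aleurone at both ages, and 6 and 4 with library size alone. Its median log2 fold changes were -4.62 and -3.72, and 4 of its genes (sh1, sh2, bt2 and wx1) are also among the starchy endosperm markers.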

How the data were processed

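RNA-seq of 8 libraries (4 groups of 2) was analysed from the deposited tables. Per the submitters' processing notes, the authors used FastQC, Bowtie2 2.2.3, SAMtools and RSEM 1.2.15 on B73 RefGen_v3. No source used here gives the annotation or the strand setting. The authors deposited RSEM expected counts (estimated reads per gene, unscaled), TPM, and each transcript's percent of its gene, per the file headers.

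Expected counts were rounded and fitted with edgeR 4.0.16 in R 4.3.3 (filterByExpr, TMM, 4 group means over 8 libraries, quasi-likelihood test), with Benjamini-Hochberg adjustment over 19058 genes. Standard errors were taken from the F statistic. The fit was tested on simulated counts. There all libraries shared the same composition apart from a set of genes changed equally up and down. It could therefore not test the scaling between tissues of unlike composition. Alternatives were other scalings, no filter, a replicate block, the compared libraries alone, DESeq2 1.42.0, limma 3.58.1 on log2(TPM + 1), and leaving out each library. The labels call replicates biological without saying how they were cultured or paired, so p-values measure the spread between these libraries.

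Replicate deviations of the 4 groups correlated in all 6 pairs (Pearson r from 0.19 to 0.41 across 19058 genes, which are not independent), so same-numbered libraries were taken as paired for the block. The 8 genes and all lists were chosen with earlier results of these data known. The 8 genes are described in full, other genes by list or by likeness to z1A1_3 and az22z5. Names came from a table of another assembly, from which no coordinates were used. Promoter motifs were not searched and no sequences are shown, since no sequence was at hand.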

Additional observations from a re-analysis of the deposited data

Results flagged for a closer look

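For z1C1_7 and az22z5 both libraries at 22 DAP lay above both at 18 DAP in aleurone and below both in starchy endosperm, by TPM. Tested as an interaction on the log2 scale, the difference was 0.68 for z1C1_7 (edgeR adjusted p = 1.00) and 2.70 for az22z5 (edgeR adjusted p = 1.00), and neither passed. With 2 libraries a group, no search for single outlying libraries was made.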

How the results depend on the processing

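The 7 alpha-zein genes other than az22z5 kept their direction between the tissues at both ages under all alternatives. Their calls held at 18 DAP under all, and at 22 DAP under all but the fit of the 4 libraries at 22 DAP alone, where the count of called genes fell from 8 to 0. The replicate block changed no call among the 8 genes; with it the 2 tissue contrasts gave 7 and 8 calls. In starchy endosperm with age, and in the interaction, 1 gene (az22z5) was called without the filter on low counts, and leaving out single libraries gave from 0 to 1 call in each; the cause was not tested. As shares of expected counts, the 8 genes held 3.92% and 5.24% in the younger and older aleurone and 30.3% and 33.0% in the younger and older starchy endosperm. These are below the TPM shares since TPM corrects for length.

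Sign changes came from az22z5 at 18 DAP (0.82 with library size alone and 1.26 with limma) and from small values that passed in no setting. For age in aleurone, fl2 gave from -0.17 to 0.45 with single libraries left out. For age in starchy endosperm, upper quartile scaling gave 0.0759 for fl2, 0.12 for z1A1_7 and 0.00556 for z1C1_7, and library sizes without zein counts 0.10, 0.14 and 0.0293. With single libraries left out, this contrast gave -0.0926 to 0.41 for z1A1_3, -0.34 to 0.30 for fl4, -0.46 to 0.19 for z1A1_7, -0.0431 to 0.36 for AF546188.1_FG005 and -0.18 to 0.33 for AF546188.1_FG007. In the interaction, z1A1_3 was at -0.0121 with upper quartile scaling, at -0.0535 with library sizes without zein counts and from -0.0406 to 0.46 with single libraries left out, and fl2 from -0.0873 to 0.54.

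Calls over all genes depended far more on the setting. At 18 DAP 395 genes were called (230 higher and 165 lower), beside 593 with upper quartile scaling (283 and 310), 1332 with library size alone (1281 and 51), 1214 without the filter, 808 with the replicate block (359 and 449), 747 with the compared libraries alone, 2149 with DESeq2, 9576 with limma, and from 47 to 1658 with a library left out. At 22 DAP 322 were called (226 and 96), beside 467 with upper quartile scaling (247 and 220), 1636 with library size alone (1598 and 38), 1265 without the filter, 580 with the block (327 and 253), 0 with the compared libraries alone, 2408 with DESeq2, 10620 with limma, and from 178 to 4959 with a library left out. Without the filter 6, 61 and 17 genes were called for age in aleurone, age in starchy endosperm and the interaction, and without 22-DAP starchy endosperm replicate 1 the last 2 gave 3176 and 2282. The library of that group that remained, replicate 2, had 9343 detected genes, the fewest of all libraries. With 2 libraries a group and the shallowest at 2473036 counts, the absence of a call does not show the absence of a change.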
